A study of Mus musculus with 8 samples.

Results

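In wild-type mouse morulae cultured with A485, 49 protein-coding genes that control morulae expressed were reduced to at most one eighth of their control level. They were the genes with a mean of at least 5 TPM in control and an A485 mean at or under 12.5% of it, so they were selected on their measured levels in A485 and control. Of 18257 genes in the deposited table, 5528 reached 5 TPM in control, 58 of these met both conditions, and 9 of the 58 belonged to a set of 11 genes left out by name, among them the lineage genes Cdx2 and Gdf3. TPM, a share of all transcripts in a library, divides each gene's reads by its transcript length, so levels of different genes can be set side by side.

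Embryos of the A485 group were cultured in KSOM medium with 2 µM A485, and those of the control group in KSOM with 0.1% DMSO, the solvent of A485. Both cultures began at the 4-cell stage and, per the protocol, ran to the blastocyst stage, although all samples are labelled as morulae. Each group had 4 libraries of polyadenylated RNA, and each library pooled 3 whole wild-type embryos freed of the zona pellucida. The labels give neither litter nor day of culture for a pool, so any p-value measures no more than the spread between these pools.

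A485 is a small molecule that blocks the acetyltransferase activity of p300 and CBP, a pair of closely related coactivators. Both enzymes acetylate lysines of histone tails, above all at enhancers and active promoters, and of many other proteins, and they help to recruit the transcription machinery. Genes that depend on distant enhancers, such as those of a single tissue or stage, are known to react to their loss more than housekeeping genes. In the morula, pluripotency factors and the first trophectoderm factors are active side by side.

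Total estimated counts per library ranged from 23641781 to 25677701. The A485 libraries differed more among themselves than the control libraries did, with a chi-square per degree of freedom of 69 between replicates 1 and 2, 61.7 between replicates 3 and 4 and 124.1 to 214.6 between the pairs, against 20.2 to 35.9 between control libraries. The summed level of 43 pluripotency genes that are not among the 49 was 14320, 11680, 7470 and 9370 TPM in A485 replicates 1 to 4, against 20400 to 22690 TPM in control. The summed level of 36 trophectoderm genes was 2993, 5521, 7131 and 6683 TPM in A485, against 2251 to 2783 TPM in control. Markers of both lineages were thus present in every library. Gja1, one of the 49, is on the list of cumulus and granulosa cell markers, with 14.4 to 35.5 TPM in A485 and 157 to 262 TPM in control. Over the 19 other markers of that list the sum was 26.8 to 45.3 TPM in A485 and 12.8 to 21.4 TPM in control. Amhr2 gave 21.2, 32.7, 15.5 and 18.6 TPM of it in A485 replicates 1 to 4, and most of it in control. Cyp11a1, a steroid synthesis gene, had 1.1, 8.78, 21.2 and 13.0 TPM in A485, against 0 to 0.1 TPM in control, and Inha 0.68 to 1.77 TPM in A485, against 0 TPM in every control library, and both rose. Star also rose, with 0.18 to 0.7 TPM in A485, against 0.04 to 0.13 TPM in control. The call of Star was lost when A485 replicate 3 or control replicate 1, 2 or 3 was left out alone. Tnfaip6 had 0.09, 0.26, 1.43 and 0.09 TPM in A485, against 0 to 0.06 TPM in control. Foxl2 had 0.02 to 0.17 TPM in A485, against 0 to 0.02 TPM in control, and neither of these 2 genes was tested. Fshr, Lhcgr, Cyp19a1, Amh, Has2 and Ptx3 were at 0 to 0.07 TPM in all 8 libraries. Because each library is a bulk sample, fewer cells of a type and less RNA per cell cannot be told apart in any of these values.

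RefSeq promoter windows, from 250 bases before to 50 bases after a gene's start on GRCm38.p6, the build of the deposited table, were found for 33 of the 49 genes. These sequences are shown because a CpG-poor start was common to many of the 49 and the rule made no use of it. The 250 bases before the start are printed in the direction of transcription. In the first set, capitals mark matches to any of the 12 short motifs named below. The printed stretch of Bhmt is chr13:93637759-93638008 on the minus strand, that of Sept12 chr16:4997853-4998102 on the minus strand, and that of Cd84 chr1:171839447-171839696 on the plus strand.
Bhmt: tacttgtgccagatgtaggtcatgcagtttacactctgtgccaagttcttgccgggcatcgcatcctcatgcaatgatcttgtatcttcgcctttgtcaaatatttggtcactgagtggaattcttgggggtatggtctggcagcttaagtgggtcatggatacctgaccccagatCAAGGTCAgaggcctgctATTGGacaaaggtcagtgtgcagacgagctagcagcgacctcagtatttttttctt
Sept12: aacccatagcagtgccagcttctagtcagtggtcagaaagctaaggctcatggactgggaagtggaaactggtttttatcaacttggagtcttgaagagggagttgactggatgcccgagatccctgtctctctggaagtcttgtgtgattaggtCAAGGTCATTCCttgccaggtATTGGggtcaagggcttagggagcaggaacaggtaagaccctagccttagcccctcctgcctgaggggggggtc
Cd84: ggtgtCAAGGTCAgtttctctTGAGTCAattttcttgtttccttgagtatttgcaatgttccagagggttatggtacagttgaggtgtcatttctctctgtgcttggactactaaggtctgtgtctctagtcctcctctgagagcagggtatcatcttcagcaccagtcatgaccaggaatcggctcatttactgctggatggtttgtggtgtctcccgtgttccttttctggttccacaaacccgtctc
In the second set, capitals mark CpG dinucleotides, with 0 in the printed 250 bases of Pramel5 (chr4:144280467-144280716, minus strand) and 23 in those of Bmyc (chr2:25706629-25706878, plus strand).
Pramel5: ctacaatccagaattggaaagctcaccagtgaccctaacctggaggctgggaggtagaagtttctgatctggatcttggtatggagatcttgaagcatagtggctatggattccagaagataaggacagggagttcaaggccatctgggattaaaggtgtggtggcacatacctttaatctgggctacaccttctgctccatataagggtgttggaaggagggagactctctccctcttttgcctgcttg
Bmyc: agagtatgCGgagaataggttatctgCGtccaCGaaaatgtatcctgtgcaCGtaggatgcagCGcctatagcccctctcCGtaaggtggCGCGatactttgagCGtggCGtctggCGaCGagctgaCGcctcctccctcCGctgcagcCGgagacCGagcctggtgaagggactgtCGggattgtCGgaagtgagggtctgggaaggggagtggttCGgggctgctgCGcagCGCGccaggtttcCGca

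CpG dinucleotides are known to be depleted from most of the mouse genome and retained in CpG islands, where the starts of broadly expressed genes often lie. Over the 44 windows of the 33 genes, the observed number of CpG dinucleotides was a median of 0.284 of that expected from base composition. The median was 0.781 over 5573 windows of the other genes of at least 5 TPM in control, and 0.384 over all 32851 windows of the RefSeq table. A value under 0.3 was found in 54.5% of the windows of the nearly shut off genes, against 9.56% of those of other expressed genes. A value of at least 0.6 was found in 25% and 74.4% of these windows. These shares count windows, so a gene with several annotated starts counts more than once. Ak4 and 4933430I17Rik each had more than 1 window of at least 0.6. The genes nearly shut off therefore resembled the whole set of mouse promoters in CpG content more than they resembled promoters of genes expressed in the morula, and Bmyc stood among the minority with a CpG-rich start. These differences were not tested, and GC content had a median of 51.5% in their windows and 60% in those of other expressed genes.

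**Figure D1:**
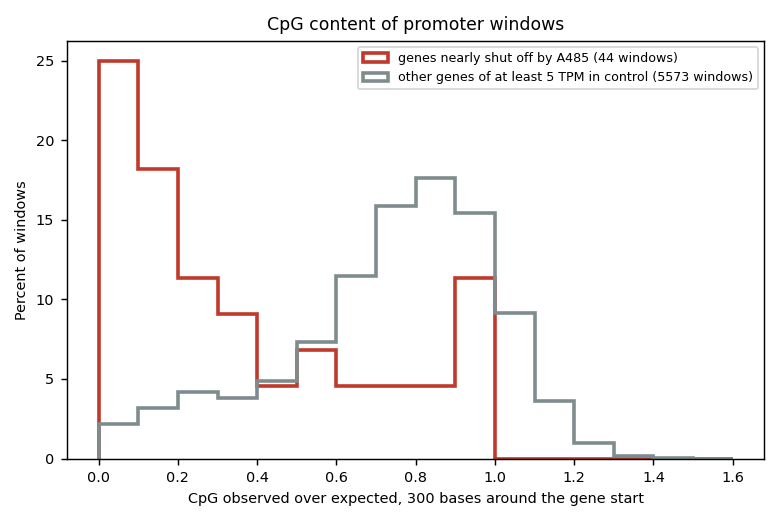
Distribution of CpG content over RefSeq promoter windows: the x axis is CpG observed over expected in 300 bases around the start, the y axis the percent of windows, the red line the 44 windows of genes nearly shut off by A485 and the grey line 5573 windows of other genes of at least 5 TPM in control. The red line is highest near 0, with 54.5% of windows under 0.3, and 74.4% of the windows of the grey line are at 0.6 or above.

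The motifs searched on both strands were the TATA box TATAAA, the GC box GGGCGG, the CACCC box CCACCC, the CCAAT box CCAAT, the octamer ATGCAAAT, the TEAD site GGAATG, the Esrrb and Nr5a2 site CAAGGTCA, the GATA site AGATAA, the cAMP response element TGACGTCA, the E-box CACGTG, the AP-1 site TGACTCA and the Ets core CCGGAAG. In this order they were present in 9.09%, 30.3%, 33.3%, 33.3%, 6.06%, 15.2%, 9.09%, 21.2%, 3.03%, 6.06%, 9.09% and 3.03% of the 33 genes. Among all 27025 genes with a window the shares were 15.7%, 38.2%, 34.0%, 41.1%, 1.97%, 16.6%, 1.76%, 12.7%, 2.03%, 8.09%, 5.95% and 9.93%. A share of 9.09% here stands for 3 genes, so most of these shares rest on few matches.

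CAAGGTCA, the sequence that the orphan nuclear receptors Esrrb and Nr5a2 are known to bind, was found in Bhmt, Sept12 and Cd84. It began 74 bases before the start of Bhmt, 95 before that of Sept12 and 245 before that of Cd84. It was present in 1.47% of other expressed genes and in 3.47% of those other expressed genes whose windows had a CpG value under 0.3. In Sept12 the last bases of the match were also the first of a TEAD match read on the other strand. The octamer, which Pou5f1 and related factors are known to bind, was found in Iqub and Vpreb3, and the GC box in 30.3% of the 33 genes, against 67.8% of other expressed genes and 16.7% of those with a CpG value under 0.3. No binding was measured, so each match is a match of letters only.

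All 49 genes entered edgeR's quasi-likelihood test, and all 49 were called lower in A485 at an adjusted p under 0.05, where 25% of the 12936 genes tested and 42.2% of the 5528 genes of at least 5 TPM were called lower. In all 49 the highest A485 library lay under the lowest control library, as it did in 17.1% of tested genes and 29.4% of the genes of at least 5 TPM. Both counts use the contrast that chose the genes and are no separate evidence; 1.05% of the genes of at least 5 TPM were at or under one eighth. The 49 genes had log2 fold changes from -5.59 to -2.35, with a median of -3.8, against a median of 0.085 over all genes tested.

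Summed over the 49 genes, the level was 459, 350.3, 205 and 189.9 TPM in A485 replicates 1 to 4, against 3553.9, 3990.3, 3876 and 3669.5 TPM in control replicates 1 to 4. Bhmt alone supplied a large share of these sums. Without it they were 289, 241, 157 and 169 TPM in A485, against 2234, 2564, 2233.5 and 2282.5 TPM in control. The highest A485 sum remained far under the lowest control sum in both cases. Control means of the 49 genes had a median of 20.2 TPM, against 26.4 TPM for all genes of at least 5 TPM. Of the 49, 25 had at least 20 TPM in control, 6 had at least 100 TPM and 13 had under 10 TPM.

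**Figure D2:**
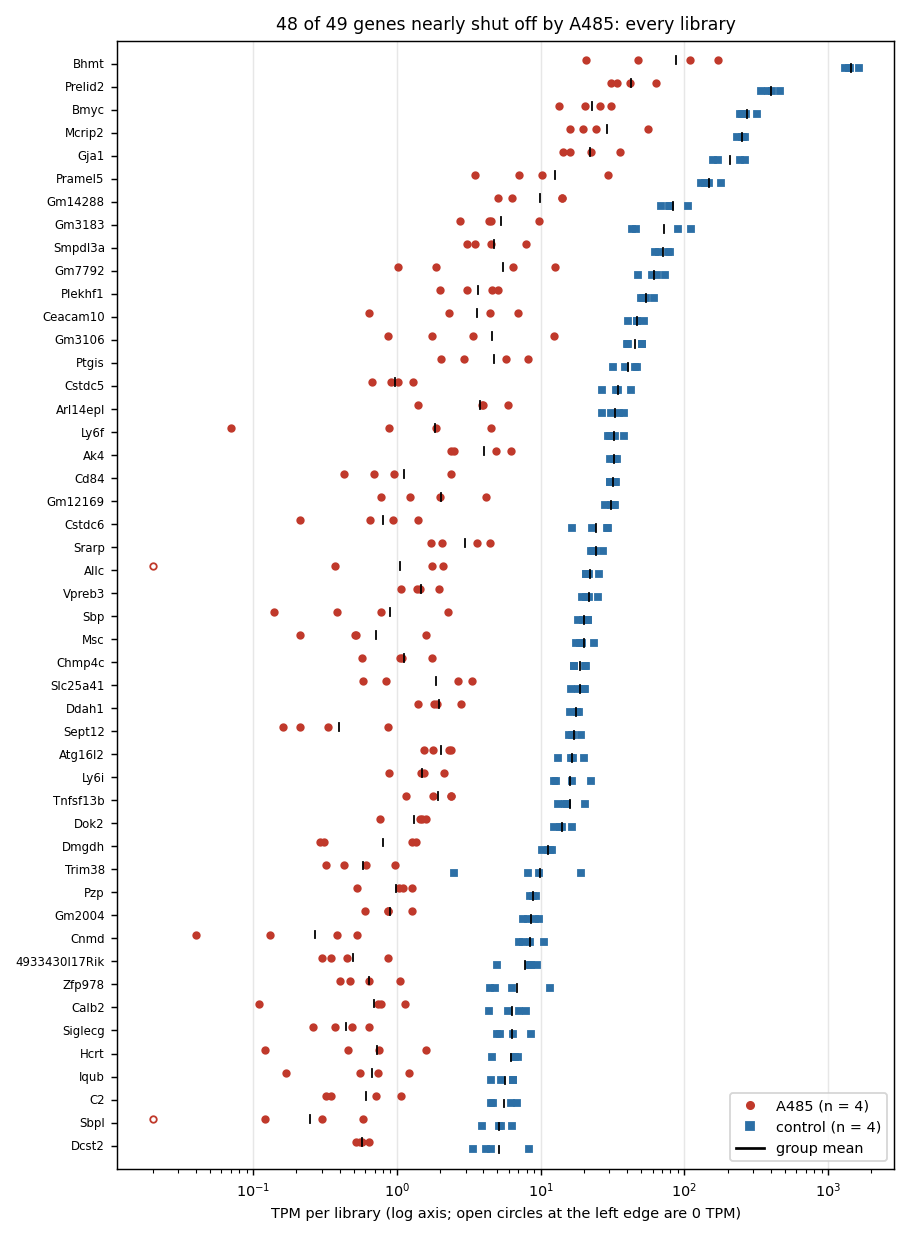
TPM of 48 of the 49 genes in every library on a log axis, with red circles for 4 A485 libraries, blue squares for 4 control libraries, black bars for group means and open circles at the left edge for 0 TPM. Genes run from the highest control mean (Bhmt) to the lowest (Dcst2), and no plotted gene's A485 values reach its control values.

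The residual level, the A485 mean as a percent of the control mean, ranged from 2.31% for Sept12 to 12.3% for Ak4. Its median was 8.90%, with quartiles at 6.02% and 11.2%, and the same measure had a median of 100.7% over all genes of at least 5 TPM. It was under 5% in 9 genes, between 5% and 10% in 21 and above 10% in 19. For 19 of the 49 the A485 mean was under 1 TPM. A listed value of 0 TPM occurred for Sbpl in A485 replicate 2 and for Allc in A485 replicate 4, while both genes had reads in the other A485 libraries. The reduction was therefore deep, and values of 0 TPM were few. A mean of at least 20 reads in A485 remained for 38 of the 49, while others had few reads, such as Cstdc6 with 1 to 6 per A485 library.

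Residual levels ran close to the threshold from both sides. Just inside the ratio were Atg16l2 at 12.1%, Srarp at 12.3% and Ak4 at 12.3%, and just outside were Gulo at 13.0%, St6galnac4 at 13.3% and Tmem52 at 13.4%. Gulo, which encodes the last enzyme of vitamin C synthesis in mice, had 204 TPM in control and was more abundant there than all but 5 of the 49. Just inside the control minimum were Dcst2 at 5.09 TPM, Sbpl at 5.16 TPM and C2 at 5.57 TPM, and just outside were Mboat1 at 4.71 TPM, Slc15a2 at 4.70 TPM and Cldn34d at 4.61 TPM.

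By function and component terms of the Gene Ontology in the deposited table, 13 of the 49 genes (26.5%) encoded ligands, hormones or other secreted proteins, a class that held 5.75% of genes of at least 5 TPM in control. Receptors and other plasma membrane proteins made up 7 of the 49 (14.3%, against 12.1%) and transcription regulators 5 (10.2%, against 6.68%). Enzymes not placed in an earlier class made up 5 (10.2%, against 22.5%), cytoskeletal or ciliary proteins 2 (4.08%, against 5.46%), and transporters and nucleic acid binding proteins 1 each (2.04%, against 3.15% and 10.7%). The other 15 (30.6%, against 33.7%) had none of these terms. Each gene took the first class that matched, so Gja1, a gap junction gene, is counted with transcription regulators, and Ptgis, a membrane enzyme, with secreted proteins. These shares are descriptions of genes chosen for their fall, with no test.

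Among the enzymes, Bhmt had the highest control level of the 49. It encodes betaine-homocysteine methyltransferase, which remakes methionine from homocysteine with a methyl group of betaine. Bhmt lies at chr13:93616891-93637758. It had 170.2, 109, 47.7 and 20.7 TPM in A485 replicates 1 to 4, against 1319.7, 1427, 1642 and 1387 TPM in control replicates 1 to 4. Every A485 library was far under every control library, but the A485 libraries themselves spanned 8.22-fold, with replicate 1 highest and replicate 4 lowest. The mean was 87.0 ± 66.8 TPM in A485 and 1444 ± 139 TPM in control (SD, n = 4 each), a residual of 6.02%.

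Dmgdh, which lies close by on chromosome 13, encodes the mitochondrial dehydrogenase of dimethylglycine, the product that betaine leaves when Bhmt has used it. It had 1.35, 1.27, 0.29 and 0.31 TPM in A485, against 11.3, 11.6, 12.0 and 10.3 TPM in control. As for Bhmt, A485 replicates 1 and 2 were higher than replicates 3 and 4, and all were under every control library. Between Bhmt and Dmgdh stands Bhmt2, one of the genes left out by name, at 0.968 ± 0.572 TPM in A485 and 26.4 ± 5.06 TPM in control (SD, n = 4 each). Bhmt and Bhmt2 are 18339 bases apart, and Bhmt2 and Dmgdh 134 bases. The 3 genes in a row on chromosome 13 were thus at 6.02%, 3.66% and 7.13% of control. On the far side of Bhmt, Gm6109 was at 2.61 TPM in A485 and 2.49 TPM in control and was not called, and Homer1 and Jmy were under 1 TPM on average in both groups, as was Arsb beyond Dmgdh.

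Other genes of the betaine and methionine route had higher residual levels. Mtr, the folate-dependent methionine synthase, was at 42.4% of control (log2 fold change -1.47 ± 0.23, SE; edgeR adjusted p = 0.000433), and Mtrr, its reductase, at 36.7% (-1.71 ± 0.25; edgeR adjusted p = 0.000306). Mat2a, which makes S-adenosylmethionine, was at 63.7% (-0.94 ± 0.17; edgeR adjusted p = 0.00101), and these 3 genes fell. Ahcy, which releases homocysteine, was at 111% and did not pass the test. Aldh7a1, which makes betaine from its aldehyde, was at 2372% (log2 fold change 4.20 ± 0.34, SE) and Gnmt, which methylates glycine, at 1371% (3.48 ± 0.63), and both rose. In a list of 51 tested genes of amino acid, one-carbon and nucleotide catabolism, 24 fell, 9 rose and 18 did not pass, with a median log2 fold change of -0.58. The list contains Bhmt, Dmgdh and Allc.

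Allc encodes allantoicase, an enzyme of uric acid breakdown. It had 2.09, 1.74, 0.37 and 0 TPM in A485, against 25.3, 21.5, 20.8 and 20.8 TPM in control. Ak4, a mitochondrial adenylate kinase, had 6.24, 4.91, 2.48 and 2.38 TPM in A485, against 32.1, 33.0, 30.3 and 34.1 TPM in control. In both genes A485 replicates 1 and 2 were the higher libraries and the groups did not overlap. Of the other adenylate kinase genes at 1 TPM or more, Ak7 had 17.99% of its control level, Ak6 57.5% and Ak1 825%. Ddah1, which degrades methylated arginines that inhibit nitric oxide synthases, had 1.89, 2.79, 1.8 and 1.4 TPM in A485, against 17.99, 16.01, 17.8 and 18.4 TPM in control. Its A485 values stayed within a 1.99-fold range, narrower than those of Bhmt, Dmgdh or Allc.

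Smpdl3a and Ptgis also encode enzymes but were classed as secreted. Smpdl3a, a phosphodiesterase related to acid sphingomyelinase, had 3.05, 7.89, 4.52 and 3.47 TPM in A485, against 79.3, 77.3, 62.9 and 66.1 TPM in control. Its relative Smpd1, acid sphingomyelinase itself, was at 19.0% of control (log2 fold change -2.71 ± 0.19, SE; edgeR adjusted p = 1e-05), and Smpdl3b at 61.0%. Ptgis, prostacyclin synthase, had 5.75, 8.17, 2.93 and 2.03 TPM in A485, against 32.0, 46.6, 45.4 and 38.7 TPM in control. A485 replicate 2 was the highest A485 library for both genes, yet it was still under every control library.

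The class of secreted proteins, which was set by annotation terms alone, also contained proteinase inhibitors. Cstdc5 and Cstdc6 encode small cystatin-type proteins, a fold known for inhibiting cysteine proteinases, and lie 25050 bases apart on chromosome 16. Cstdc5 had 0.67, 1.29, 0.91 and 1.02 TPM in A485, against 42.6, 26.8, 33.4 and 34.4 TPM in control, a residual of 2.84%. Cstdc6 had 0.21, 0.94, 1.4 and 0.65 TPM in A485, against 29.5, 16.6, 22.6 and 28.9 TPM in control, a residual of 3.28%. Both were low in all 4 A485 libraries, where each rested on at most 7 reads per library. Nearby on chromosome 16, Csta1 was at 11.8% of control (log2 fold change -3.44 ± 0.49, SE; edgeR adjusted p = 0.00029) and under the 5 TPM minimum in control, and Stfa2l1 was at 15.6% and was too low to be tested. Farther along, Ccdc58 was at 68.4% and was called lower, while Fam162a was at 1900% and was called higher. Pzp, a broad proteinase inhibitor of the alpha-2-macroglobulin family, had 1.03, 1.28, 0.53 and 1.11 TPM in A485, against 8.83, 8.38, 9.30 and 8.81 TPM in control.

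**Figure D3:**
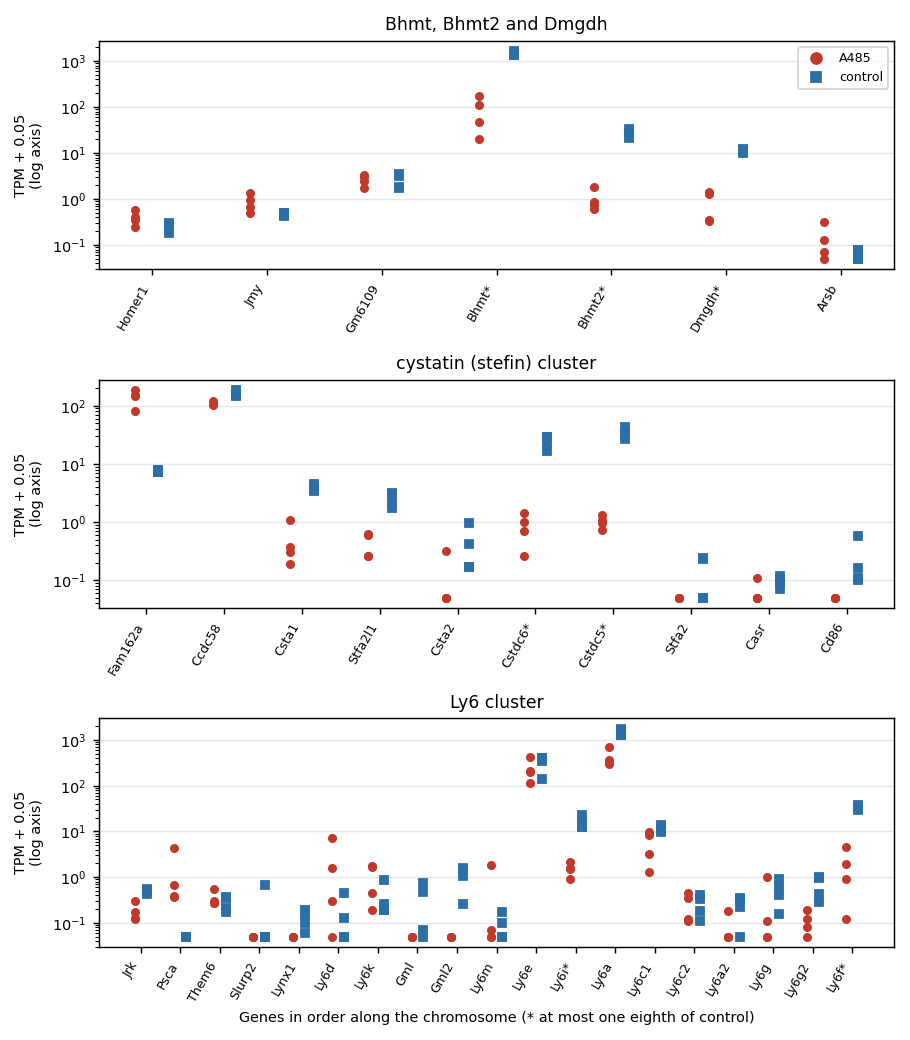
TPM plus 0.05 on a log axis for genes in chromosomal order at the Bhmt, cystatin and Ly6 loci. Red circles for the 4 A485 libraries stand left of blue squares for the 4 control libraries. An asterisk marks genes at or under one eighth of control that had at least 5 TPM in control. Genes under 5 TPM in control, such as Csta1 at 11.8% of control, carry no asterisk. Bhmt, Bhmt2 and Dmgdh are low in A485 side by side, Cstdc6 and Cstdc5 likewise, while Fam162a is at 82.1 to 187 TPM in A485 and 7.16 to 7.73 TPM in control.

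A second pair of neighbours, Sbp and Sbpl, lies on chromosome 17 with 7482 bases between the genes. Sbp encodes a spermine-binding protein known from mouse prostate secretion. It had 0.38, 0.14, 0.78 and 2.28 TPM in A485, against 21.2, 19.7, 18.3 and 21.5 TPM in control. Sbpl, its relative, had 0.12, 0, 0.30 and 0.58 TPM in A485, against 5.33, 5.16, 3.88 and 6.27 TPM in control. Replicate 4 was the highest and replicate 2 the lowest A485 library for both, and the 2 genes are similar in name and place, so reads of one could have been counted for the other. Without A485 replicate 4 the residual was 2.15% for Sbp, against 4.44% with it, and 2.71% for Sbpl, against 4.84%.

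Ligands and hormones among the 49 were at low to moderate levels in control. Tnfsf13b, the B-cell survival ligand BAFF, had 1.78, 2.36, 1.15 and 2.38 TPM in A485, against 15.2, 20.5, 14.7 and 13.2 TPM in control. Cnmd, chondromodulin, known as an inhibitor of vessel growth in cartilage, had 0.13, 0.38, 0.04 and 0.53 TPM in A485, against 10.6, 7.09, 8.46 and 7.52 TPM in control. Hcrt, the precursor of the orexin neuropeptides, had 1.59, 0.12, 0.46 and 0.75 TPM in A485, against 6.99, 4.61, 6.48 and 6.59 TPM in control. Tnfsf13b was even over the A485 libraries, whereas Hcrt was highest in replicate 1 and had a residual of 7.19% without it, against 11.8% with it. Hcrt rested on only 15, 1, 4 and 7 reads in A485 replicates 1 to 4, too few to judge its evenness. C2, a complement component, averaged 0.610 ± 0.348 TPM in A485 and 5.57 ± 1.16 TPM in control (SD, n = 4 each). Ceacam10, a secreted member of the carcinoembryonic antigen family, had 0.64, 4.46, 2.31 and 6.94 TPM in A485, against 52.3, 46.6, 40.8 and 46.8 TPM in control, and its lowest A485 library was replicate 1. Vpreb3, known from B-cell receptor assembly, averaged 1.46 ± 0.370 TPM in A485 and 21.7 ± 2.33 TPM in control (SD, n = 4 each).

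At the cell surface, Gja1 encodes connexin 43, the gap junction protein through which cells of the compacted morula are coupled. It had 35.5, 22.3, 16.1 and 14.4 TPM in A485, against 157, 262, 244 and 171 TPM in control. All A485 libraries were under every control library, and replicate 1 was the highest of them. Among other connexin genes, Gjb2 rose to 1.595 TPM in A485, against 0.0975 TPM in control (log2 fold change 3.65 ± 0.47, SE; edgeR adjusted p = 0.00015), and Gjb5 and Gje1 did not pass the test. Gja1 is also a marker of cumulus cells, whose other markers are given above, and their part in its level was not tested.

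Cd84, a self-binding receptor of the SLAM family known from leukocytes, had 2.39, 0.69, 0.43 and 0.95 TPM in A485, against 33.1, 30.4, 33.2 and 30.3 TPM in control. Siglecg, an inhibitory sialic acid receptor known from B cells, had 0.49, 0.26, 0.64 and 0.37 TPM in A485, against 8.62, 5.19, 6.42 and 4.98 TPM in control. Neither gene's groups came close to overlapping. Dok2, an adaptor under tyrosine kinases of blood cells, had 1.44, 1.5, 1.59 and 0.76 TPM in A485, against 14.0, 13.7, 12.3 and 16.6 TPM in control.

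Ly6f and Ly6i encode GPI-anchored surface proteins of the Ly6 cluster on chromosome 15. Ly6f had 1.88, 4.53, 0.07 and 0.88 TPM in A485, against 37.7, 32.6, 29.3 and 30.2 TPM in control. Replicate 2 supplied 61.6% of the summed A485 level of Ly6f, and its residual was 2.91% without that library, against 5.67% with it. Ly6i had 1.54, 2.13, 0.88 and 1.47 TPM in A485, against 16.6, 22.3, 12.4 and 12.7 TPM in control. In the same cluster the far more abundant Ly6a was at 28.2% of control (log2 fold change -2.16 ± 0.27, SE; edgeR adjusted p = 0.000129), with 421 ± 179 TPM in A485 and 1495 ± 233 TPM in control (SD, n = 4 each). Ly6e was at 72.8% and did not pass the test.

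Among transcription regulators, Bmyc was the most abundant. It encodes a relative of the Myc amino-terminal region that lacks the DNA-binding part. It had 31.0, 26.0, 13.3 and 20.4 TPM in A485, against 245, 270.1, 251 and 319 TPM in control. Myc itself was at 28.9% of control (log2 fold change -2.11 ± 0.34, SE; edgeR adjusted p = 0.000547) and Mycn at 90.7%, not past the test. Msc, musculin, a basic helix-loop-helix repressor, had 0.51, 0.21, 0.52 and 1.6 TPM in A485, against 17.7, 23.6, 19.4 and 18.8 TPM in control. The groups of both genes were far apart, and replicate 4 was the one high A485 library of Msc, without which the residual was 2.08%, against 3.57% with it.

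Trim38, a ubiquitin ligase known from innate immune signalling, was the least even gene in control. It had 0.32, 0.43, 0.97 and 0.61 TPM in A485, against 18.9, 2.50, 9.71 and 8.19 TPM in control. Control replicate 2 was the low library, yet it was above every A485 library. Zfp978, a zinc finger gene, averaged 0.640 ± 0.291 TPM in A485 and 6.80 ± 3.30 TPM in control (SD, n = 4 each). Mcrip2, a partner of transcriptional corepressors without a class here, had 55.6, 24.2, 16.1 and 19.7 TPM in A485, against 231, 264, 251 and 256 TPM in control, with A485 replicate 1 the high one.

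Genes of the cytoskeleton and of membrane scission included the lowest residual of all. Sept12 encodes a septin known from the sperm tail. It had 0.87, 0.21, 0.16 and 0.33 TPM in A485, against 16.57, 19.08, 15.69 and 16.7 TPM in control. Replicate 1 was the highest A485 library, and without it the residual was 1.37%, against 2.31% with it. The other 8 septin genes at 1 TPM or more had 63.6% to 1253% of their control level. Of these Sept7 and Sept4 rose (log2 fold changes 0.87 ± 0.21 and 3.26 ± 0.52, SE) and Sept1 fell (-1.0 ± 0.24). Chmp4c, an ESCRT-III subunit known from the last step of cell division, had 1.09, 0.57, 1.05 and 1.74 TPM in A485, against 20.5, 17.1, 17.1 and 20.8 TPM in control. The other 9 Chmp genes had 62.2% to 376.5% of their control level.

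**Figure D4:**
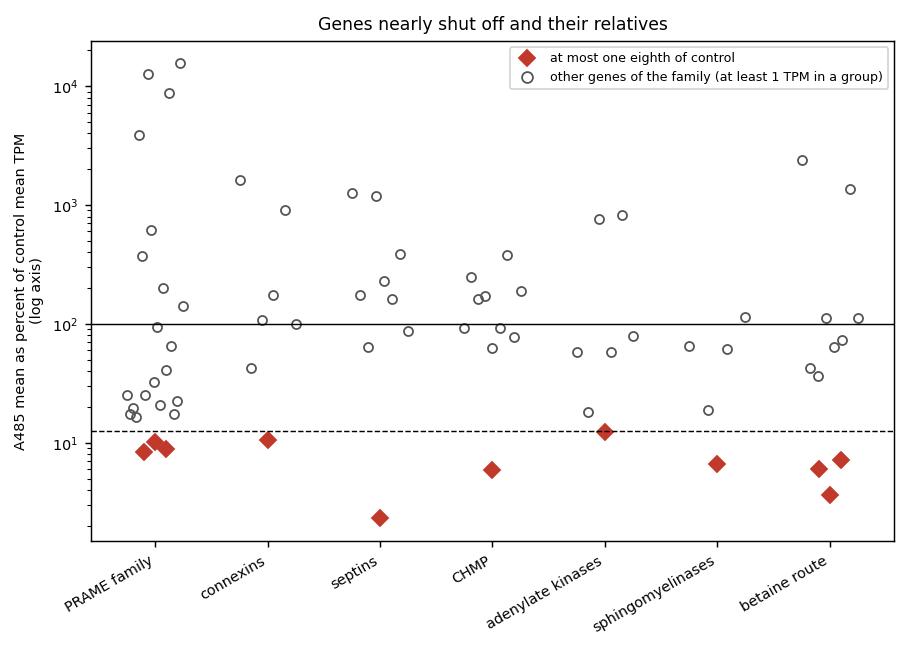
A485 mean as a percent of the control mean on a log axis for genes of 7 families, with red diamonds for genes at or under one eighth of control (Bhmt2 included) and open circles for other family genes of at least 1 TPM in a group; the solid line is 100% and the dashed line 12.5%. The other septins span 63.6% to 1253% and the other Chmp genes 62.2% to 376.5%, while the other PRAME genes reach down to 16.3%.

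Pramel5, Gm7792 and Gm3106 are PRAME-like genes, members of a large multicopy family of leucine-rich repeat proteins expressed in germ cells and cleavage-stage embryos. Pramel5 had 10.2, 29.4, 3.48 and 7.06 TPM in A485, against 139, 179, 130 and 148 TPM in control. Gm7792 had 6.44, 12.5, 1.02 and 1.87 TPM in A485, against 73.3, 64.2, 47.9 and 59.97 TPM in control. Gm3106 had 3.39, 12.5, 0.86 and 1.74 TPM in A485, against 50.7, 50.9, 40.1 and 40.6 TPM in control. In all 3 genes replicate 2 was the highest and replicate 3 the lowest A485 library, while no A485 library reached a control library. Without A485 replicate 2 the residual was 4.64% for Pramel5, 5.07% for Gm7792 and 4.38% for Gm3106, against 8.42%, 8.90% and 10.1% with it.

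Near-identical PRAME copies share reads, so the count of a single copy is uncertain. Of 23 PRAME genes at 1 TPM or more in a group, 10 fell, 3 rose, 9 did not pass and 1 was not tested. Among all tested genes 25% fell and 29.7% rose. Replicate 2 was the highest A485 library in 20 of the 23. On chromosome 5 the 8 other PRAME genes had 16.3% to 41.1% of their control level, with Gm3139 at 17.6% (log2 fold change -2.82 ± 0.58, SE; edgeR adjusted p = 0.00333). On chromosome 4 the family was mixed, with Pramel4 at 25.2% of control, while Gm13119 had 7.27 TPM in A485 and 0.0575 TPM in control. In a list of 22 tested cleavage-stage genes that includes Pramel5, 4 fell, 12 rose and 6 did not pass. The summed level of the genes of that list other than Pramel5 was 1383, 1519, 335 and 535 TPM in A485 replicates 1 to 4, against 767 to 949 TPM in control, so A485 replicates 1 and 2 were also the high libraries there. Its part in the residual levels was not tested.

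The other abundant genes had no class in common. Prelid2, a relative of mitochondrial lipid transfer proteins, had 63.1, 30.7, 41.9 and 34.0 TPM in A485, against 339, 464, 410.1 and 384 TPM in control. Plekhf1, an endosomal protein that binds phosphoinositides, had 5.05, 2.00, 3.08 and 4.55 TPM in A485, against 61.6, 49.7, 51.2 and 54.4 TPM in control. Both had groups far apart, with A485 replicate 1 highest and replicate 2 lowest. Arl14epl averaged 3.803 ± 1.86 TPM in A485 and 32.6 ± 5.12 TPM in control (SD, n = 4 each), and Srarp, a small protein that binds steroid receptors, 2.97 ± 1.30 TPM in A485 and 24.1 ± 2.11 TPM in control. Slc25a41, a mitochondrial carrier of adenine nucleotides, had 3.34, 2.68, 0.58 and 0.84 TPM in A485, against 16.2, 20.2, 20.5 and 18.1 TPM in control. Calb2, calretinin, averaged 0.690 ± 0.425 TPM in A485 and 6.31 ± 1.52 TPM in control (SD, n = 4 each). Iqub and Dcst2, known from sperm function, had 11.9% and 11.2% of their control level.

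Predicted genes formed the rest. Gm14288 and Gm3183 averaged 9.85 ± 4.84 and 5.33 ± 3.02 TPM in A485, against 83.1 ± 15.9 and 72.6 ± 33.4 TPM in control (SD, n = 4 each). Gm12169 averaged 2.03 ± 1.49 TPM in A485 and 30.9 ± 2.12 TPM in control, and 4933430I17Rik 0.493 ± 0.259 TPM in A485 and 7.82 ± 1.95 TPM in control. The residual of Gm2004 depended on the unit, at 10.5% in TPM but 19.6% in TMM-scaled CPM, because that gene had more reads per TPM in A485 than in control. It averaged 77.7 reads and 0.900 TPM in A485, against 331 reads and 8.60 TPM in control.

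Over the 4 A485 libraries the 49 genes were not evenly low. The median residual was 9.63%, 9.57%, 6.05% and 6.91% in A485 replicates 1 to 4. One eighth of control was exceeded by 13, 15, 5 and 6 genes in these libraries. All 4 A485 libraries were at or under one eighth in 20 genes, 3 of them in 19 genes and 2 of them in 10 genes. A485 replicate 1 was the highest library for 18 genes, replicate 2 for 14, replicate 3 for 8 and replicate 4 for 9. Among 2274 other genes of at least 5 TPM that were called lower, the same 4 libraries were highest in 28.4%, 28.6%, 23.4% and 19.6%, against 36.7%, 28.6%, 16.3% and 18.4% of the 49. The mean of A485 replicates 1 and 2 was above that of replicates 3 and 4 in 33 of the 49 (67.3%), and in 58.0% of the other lower genes. The summed pluripotency level given above was also highest in A485 replicates 1 and 2, and the trophectoderm sum lowest in replicate 1, and their part in this order was not tested.

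**Figure D5:**
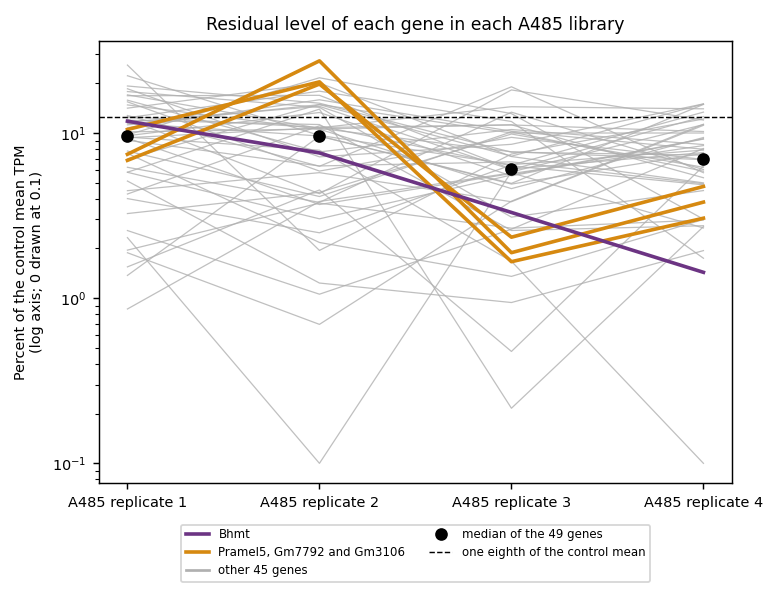
Each gene's level in each A485 library as a percent of its control mean, on a log axis with 0 drawn at 0.1; lines join the values of a gene, black dots are medians over the 49 genes and the dashed line is one eighth of control. Medians are 9.63%, 9.57%, 6.05% and 6.91%, the 3 PRAME genes (orange) peak in replicate 2 and Bhmt (purple) is highest in replicate 1.

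The order of the libraries was not the same for every gene. Both of A485 replicates 1 and 2 were above both of replicates 3 and 4 in 18 genes, among them Bhmt, Dmgdh, Ak4 and Slc25a41, and under both of them in 6 genes. For 38 genes with a mean of at least 20 reads in A485, the coefficient of variation over libraries had a median of 48.9% in A485 and 12.5% in control. Counting alone would give these genes a median of 11.7% in A485. For 285 other lower genes with A485 means in the middle range of these genes, 1.06 to 4.73 TPM, the median in A485 was 31.9%. Among the 38 genes the most even were Dcst2, whose highest library held 28.1% of the summed A485 level, Atg16l2 (29.7%), Dok2 (30.1%), Tnfsf13b (31.0%) and Pzp (32.4%), where equal libraries would hold 25% each. Among the same 38 genes the most uneven were Gm3106 (67.5%), Ly6f (61.6%), Pramel5 (58.7%) and Gm7792 (57.3%), all highest in A485 replicate 2, and Msc (56.3%), highest in replicate 4. Atg16l2, a relative of an autophagy protein, had 1.55, 1.78, 2.39 and 2.32 TPM in A485, against 13.2, 19.99, 16.4 and 16.7 TPM in control.

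To read the residual in a library that did not choose the genes, the rule was applied to 3 A485 libraries and the fourth was read. Chosen without A485 replicate 1, 58 genes had a median of 11.6% of control in replicate 1, and all 58 were under every control library there. Chosen without replicate 2, 59 genes had a median of 13.3% in it, and 56 were under every control library. Chosen without replicate 3 or 4, 45 genes each had medians of 6.33% and 7.97%, and all were under every control library. At or under one eighth in the library read were 34 of 58, 29 of 59, 35 of 45 and 36 of 45 genes. The one gene above its control mean was LOC100038995, a PRAME copy, at 137% in replicate 2. Control libraries were the same throughout and helped to choose the genes, so these readings share their denominators and are no separate evidence. The share of all genes of at least 5 TPM under every control library in a single A485 library was not computed. For all 4 A485 libraries together, a stricter condition, it was 29.4%, so the counts have no like background here. With A485 replicates 1 and 2 left out, 101 genes met the rule, and with replicates 3 and 4 left out, 41 did.

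The genes were spread over the chromosomes, and strings of neighbours were few. Within 100 kb of the 49 lay 78 other genes of at least 5 TPM in control, of which 43 (55.1%) were called lower, 4 higher and 31 not, against 42.2% called lower among all genes of at least 5 TPM. These neighbours had a median of 77.5% of their control level. Counting genes of at least 5 TPM in control, 6 of the 49 had a further gene at or under one eighth within 100 kb. These were Bhmt, Dmgdh, Cstdc5, Cstdc6, Sbp and Sbpl.

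The lists of lineage and stage genes held few of the 49, and this count is set in part by the genes left out by name. Alpl, Gdf3, Tdh, Tet2 and Tfcp2l1 of the pluripotency list and Cdx2 of the trophectoderm list met both conditions and were left out, as was Gdf3 in the signalling list. Of 43 tested pluripotency genes 29 fell, 4 rose and 10 did not pass, with Bhmt the one of the 49 among them. Etv5, a transcription factor downstream of FGF signalling, was at 1.95% of control but under the 5 TPM minimum, with 0.0400 ± 0.0424 TPM in A485 and 2.05 ± 0.322 TPM in control (SD, n = 4 each). Of 37 trophectoderm genes 11 fell, 17 rose and 9 did not pass, and Msc was the one of the 49. Of 33 germline genes 6 fell, 14 rose and 13 did not pass, and Sept12 was the one of the 49. Lists of primitive endoderm genes (4 of 18 fell and 5 rose), oocyte and maternal RNA (2 of 20 and 6), keratins and junctions (5 of 21 and 10), signalling genes (10 of 48 and 20) and lipid and steroid metabolism (12 of 49 and 22) held none of the 49. Of 7 tested cumulus and granulosa genes 1 fell, Gja1, and 4 rose. Among all tested genes 25% fell and 29.7% rose.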

How the data were processed

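Polyadenylated RNA was measured in 4 A485 and 4 control libraries, each a pool of 3 embryos. The submitters' processing notes list the build GRCm38.p6 and the tools DESeq2 1.40.2, RSEM 1.2.28 and HISAT2 2.2.1. Per the file headers, the authors deposited for each of 18257 protein-coding genes and each library a normalized count (read here as a scaled signal), a TPM, an FPKM and an estimated count, of which 18.2% are not whole. The authors' own log2 fold changes, p-value and q-value columns were deposited with them and are not printed. Reads from PCR duplicates were not separable, and whether counting used strand was not stated.

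The 49 genes and all gene lists were chosen with earlier results of these data known. Estimated counts were rounded and entered edgeR 4.0.16 (R 4.3.3; TMM, filterByExpr, robust quasi-likelihood fit with group alone; Benjamini-Hochberg adjustment over 12936 genes, threshold 0.05). The code was tested on simulated counts. Residual levels, sums, classes and promoter measures were computed from TPM and RefSeq windows in Python 3.11.15, and 18202 of the 18257 genes were found in the RefSeq table. Total estimated counts of 23641781 to 25677701 per library, and the 4 pools per group, limit the precision; values under 1 TPM rest on few reads.

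The rule for genes named took the 25 of highest control level, the 10 of lowest residual, the 5 most even and 5 most uneven, up to 4 of each class and list, chromosomal neighbours, those at the thresholds, and up to 3 other genes of a list by smallest p. Family relatives and flanking genes were chosen after their values were seen. Of the other list genes, most met by the rule are counted but not named, and some results, 1 of the 49 genes among them, are not reported here. Alternatives were DESeq2 1.42.0, RLE and upper-quartile factors, 2 other filters, a replicate block, other units, thresholds and summaries for the rule, and leaving out each library. Leaving out A485 replicates 1 and 2 or 3 and 4, and reading the library left out, were added after seeing the data. A number shared between the groups does not pair the libraries, and the block is given under the alternatives only.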

Additional observations from a re-analysis of the deposited data

Results flagged for a closer look

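In 98 sets of 4 libraries (49 genes in each group), the highest or lowest library stood apart from the other 3 in 1 set. Allc had 25.3 TPM in control replicate 1, against 21.5, 20.8 and 20.8 TPM in control replicates 2 to 4, and its gap to the next library was 0.839 of the range, above Dixon's critical value for 4 libraries. Chance would mark about 1 in 20 sets. The 4 A485 libraries of Allc, at 0 to 2.09 TPM, lay under all of these.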

How the results depend on the processing

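All 49 genes were called lower in DESeq2, with RLE or upper-quartile factors, without a filter and without any single library, and 44 with a filter of 5 CPM, under which fewer genes were tested. Genes past the threshold numbered 7077, and 6479 to 7685 without single libraries. With a replicate block they numbered 6671, of which 49 were among the genes described. Deviations of same-numbered libraries had correlations of 0.005, 0.014, 0.104 and 0.067, the numbers do not pair the libraries by any label, and A485 replicate 1 correlated more with control replicate 2 (0.143) than with its own number. The number of genes found was 113 with a control minimum of 1 TPM, 81 at one sixth, 30 at a ratio of 1 in 10 and 101 without A485 replicates 1 and 2, of which 49, 49, 30 and 47 were among the 49. It was 45 to 59 without single libraries and 48 to 68 by FPKM, TMM-scaled CPM or the authors' normalized counts. The median residual was 11.6% at one sixth and 6.60% at 1 in 10, and 8.44% to 8.92% without single libraries. Genes highest in A485 replicate 1 numbered 43 with a minimum of 1 TPM, 30 at one sixth and 11 at 1 in 10, and 17 to 37 without single libraries, the 37 arising without A485 replicate 2. The thresholds by construction admit more or fewer genes. Leaving out a library by construction also makes another library the highest for its genes, and 14 of the 49 were highest in A485 replicate 2. How far this sets the counts without single libraries was not tested. Residual levels of single genes moved by over 1.5 times in 15 of 539 cases; besides those given above, Gm12169 was at 4.30% without A485 replicate 4, Cd84 at 2.17% without A485 replicate 1, and Vpreb3 at 4.37% in TMM-scaled CPM. For 122 list and family genes other than the 49, counting each gene under each alternative, 70 calls were lost, 26 gained and 0 reversed. Cstb, Cst3, Ly6c1, Chmp1a, Chmp2a, Sept8, Sept9 and Star were among those lost. Under 1 TPM in A485, depth limits how far a residual can be told from 0.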
